A study of Mus musculus with 28 samples.

Results

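Mouse embryonic stem (ES) cells without Dicer were compared with wild-type ES cells across the transcriptome. The comparison took the untransduced parental arrays, 3 titled Dicer-null (genotype Dicer-/-) and 2 titled Dicer-WT (genotype Dicer+/+), which are 5 of the 28 Affymetrix Mouse Gene ST arrays of the series. Neither parental group carried a vector or a transgene, and the cells of all arrays were harvested while growing exponentially in ES cell medium. The series asks how hotspot mutations of DICER1 affect microRNA (miRNA) processing, and its other 23 arrays are Dicer-/- cells transduced with eGFP, wild-type DICER1 or mutant DICER1. Of these, 3 arrays with eGFP in the ENvA vector and 6 with wild-type DICER1 (4 in ENvA, 2 in PGKnvA) were used below, to ask which parental differences moved when the enzyme was put back. The labels name 1 Dicer-null and 1 Dicer-WT line, so other differences between these lines cannot be told apart from the loss of Dicer. Nothing in the labels says that the arrays came from separate cultures, so the p-values reflect spread among arrays that may be technical repeats.

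Dicer is the ribonuclease that cuts precursor hairpins into mature miRNAs, which guide Argonaute proteins to messenger RNAs and lower their stability and translation. A miRNA recognises its targets mainly through its seed, a short run of bases near its 5′ end, so that miRNAs with a common seed share targets. In mouse ES cells the miR-290 and miR-302 clusters are abundant and are known to promote the G1-S transition of the cell cycle and to restrain Nodal antagonists and Hippo pathway genes, while let-7 miRNAs accumulate on differentiation and are held back by Lin28 proteins.

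The mature sequences below are shown because the target lists that follow are grouped by these seeds, and because the precursors of the last pair differed between the lines. Capitals mark the seed, bases 2 to 8 from the 5′ end, and the sequences are those of RefSeq for GRCm38.p6. The arrays measured transcripts and not mature miRNAs.
mmu-miR-291a-3p: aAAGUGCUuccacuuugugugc
mmu-miR-294-3p: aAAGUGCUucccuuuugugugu
mmu-miR-302b-3p: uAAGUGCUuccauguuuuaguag
mmu-miR-302d-3p: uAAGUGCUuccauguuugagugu
mmu-miR-17-5p: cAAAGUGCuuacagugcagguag
mmu-miR-106b-5p: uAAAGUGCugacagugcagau
mmu-let-7a-5p: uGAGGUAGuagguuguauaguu
mmu-let-7f-5p: uGAGGUAGuagauuguauaguu
mmu-miR-377-3p: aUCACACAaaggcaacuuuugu
mmu-miR-382-5p: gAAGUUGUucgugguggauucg

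The miR-290 cluster member miR-294-3p lies on the plus strand at chr7:3220691-3220712, and miR-302b-3p lies on the plus strand at chr3:127545275-127545297. Although they come from different chromosomes, both carry the seed AAGUGCU. The miR-17 and miR-106 seed, AAAGUGC, holds the run AAGUGC as well, shifted by a base, so several genes are reported targets of both families. The let-7 seed GAGGUAG has no such overlap. miR-377-3p (chr12:109740553-109740574) and miR-382-5p (chr12:109733781-109733802), both on the plus strand, are encoded in the imprinted Dlk1-Dio3 region.

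Values below are the deposited log2 expression values, called levels, and a difference of 1 between levels is a 2-fold difference. A gene was called when its adjusted p in limma was under 0.05. The median gene varied little between arrays of a line, with a standard deviation of 0.0554 in Dicer-null and 0.0450 in Dicer-WT cells. No background level was given, so where a group mean was below 6.40, at which the expression filter was set, levels are given without a size of change. The filter used the mean of both lines, so a gene under this level in 1 line was tested only if it was high enough in the other. All 8 ES cell markers examined were above that level in both lines, with a mean level of 12.10 to 12.11 over the Dicer-null arrays and 12.20 to 12.23 over the Dicer-WT arrays. Of 10 fibroblast or feeder markers 6 were above it in each line, at mean levels over the list of 6.38 to 6.40 and 6.32 to 6.45, and Lum and Postn were under 5 in both. The deposited values obey an exact relation in which deviations of the first arrays of 5 groups, both parental groups among them, sum to 0 within 1.83e-04. The first array of each line was therefore also compared apart from the others, and 12071 of the 13956 tested genes had the same sign in both sets.

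Dicer1, the deleted gene, was examined first. Its level was 9.31, 9.22 and 9.27 on the Dicer-null arrays and 10.72 and 10.65 on the Dicer-WT arrays. The Dicer-null arrays were thus all lower, by 1.42 on the log2 scale (SE 0.0683, adjusted p = 3.34e-15). Cells with the eGFP vector read 9.28 to 9.45 and cells with wild-type DICER1 read 9.26 to 9.44. The sources used here do not state which exons the probe set reads, so it is unknown whether its level covers the deleted part. The mouse probe set did not separate cells with and without the transgene.

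Dicer-null and Dicer-WT cells differed broadly, and the larger differences were mostly rises in the Dicer-null line. At least 2-fold higher were 660 genes, 4.73% of the 13956 tested, while 318 genes (2.28%) were at least 2-fold lower, 978 genes (7.01%) in all. With no size requirement 4275 genes (30.6%) were called higher and 3806 (27.3%) lower, 57.9% in all, and in 74.7% of genes the 3 Dicer-null arrays did not overlap the 2 Dicer-WT arrays. Counts of list members below are to be read against these shares. After centring of each array on its own median the split was 5223 higher and 2896 lower, because the median of all genes moved from 0.01 to 0.09. The model shares its spread with all 28 arrays. With the 5 parental arrays alone, which leave 3 residual degrees of freedom, 9091 genes were called.

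**Figure D1:**
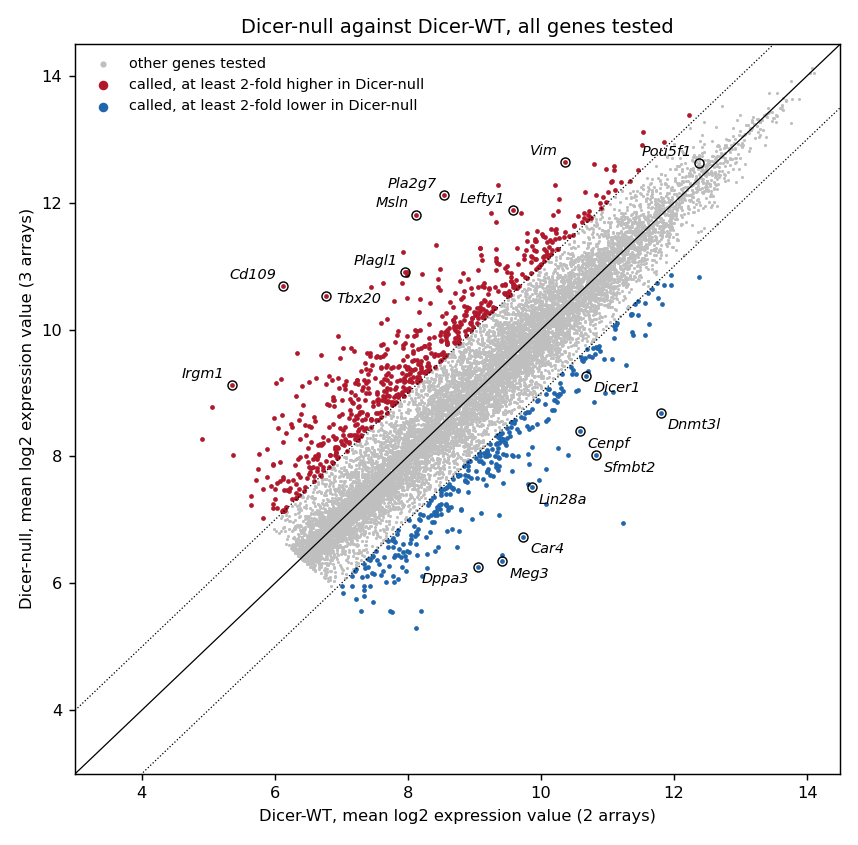
Mean log2 expression value of each of the 13956 genes tested, in Dicer-WT (x axis, 2 arrays) and Dicer-null cells (y axis, 3 arrays); the solid line marks equal levels and the dotted lines a 2-fold difference. The 660 red genes (called, at least 2-fold higher in Dicer-null) outnumber the 318 blue ones, and Pou5f1 lies close to the line of equality.

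Several of the 20 largest rises were measured well above the filter in both lines. Msln, which encodes the surface glycoprotein mesothelin, read 11.79, 11.90 and 11.74 in Dicer-null cells against 8.09 and 8.14 in Dicer-WT cells, 13.0-fold higher (SE of the log2 difference 0.0695, adjusted p = 1.39e-22). Igfbp7, a secreted binding protein of insulin-like growth factors, read 10.67, 10.70 and 10.66 against 7.45 and 7.45, 9.34-fold higher. Lgals9, the secreted lectin galectin-9, read 10.68, 10.74 and 10.76 against 7.54 and 7.71, and Loxl4, an enzyme that crosslinks matrix collagen and elastin, read 9.92, 9.96 and 9.83 against 6.96 and 6.94. In each of these genes the 3 Dicer-null arrays lay close together and far above both Dicer-WT arrays. The keratin Krt17 was already well expressed in Dicer-WT cells at 9.37 and 9.32 and reached 12.24, 12.38 and 12.21 without Dicer, 7.62-fold higher. Metabolic enzymes were among the rises as well. Ddc, which makes dopamine and serotonin from their precursors, read 10.95, 10.82 and 10.98 against 7.97 and 8.01, and the glutathione peroxidase Gpx2 read 11.39, 11.28 and 11.31 against 8.38 and 8.47.

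Several of the top 20 rises started from a Dicer-WT level under the filter. Cd109, a membrane protein that binds TGF-beta, read 10.68, 10.69 and 10.67 in Dicer-null cells and 5.90 and 6.37 in Dicer-WT cells. Fcgr2b, an inhibitory receptor for immunoglobulin G, read 9.21, 9.26 and 9.20 against 6.16 and 6.02. The secreted C1q-related protein gene C1qtnf9 read 9.35, 9.01 and 9.13 against 6.07 and 5.97. Hivep2, a zinc finger transcription factor gene, read 8.80, 8.78 and 8.75 against 4.90 and 5.20. The groups did not overlap in any of them, as the rule that named them required. Among transcription factors with a measured level in both lines, Tbx20, a T-box factor known from heart development, rose by 3.76 (SE 0.0878), and Plagl1, an imprinted zinc finger factor, read 10.86, 10.85 and 10.99 against 8.01 and 7.89.

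**Figure D2:**
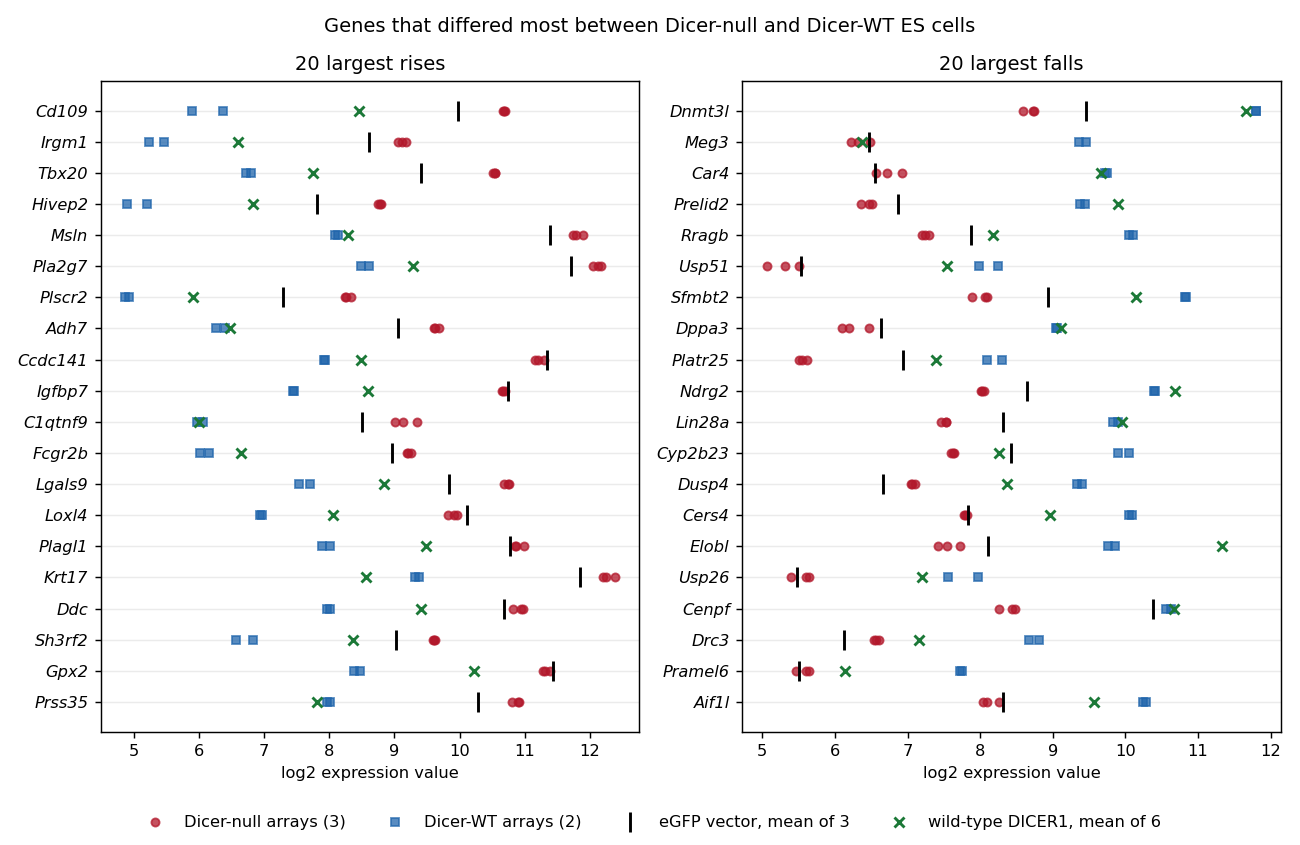
Log2 expression value of the 20 genes with the largest rise (left) and the 20 with the largest fall (right) in Dicer-null cells, with each Dicer-null array as a circle, each Dicer-WT array as a square, and the means of the eGFP vector (3 arrays) and wild-type DICER1 cells (6 arrays) as a bar and a cross. Circles and squares do not overlap for any gene, as the rule that named the genes required. The cross for Msln (8.29) lies beside its squares while that for Meg3 (6.37) stays with its circles.

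Among the 20 largest falls several were likewise measured in both lines. Dnmt3l, the catalytically inactive partner of the de novo DNA methyltransferases, read 8.74, 8.73 and 8.59 in Dicer-null cells against 11.80 and 11.80, a fall by 3.11 (SE 0.0820, adjusted p = 3.1e-20). Car4, a carbonic anhydrase anchored at the cell surface, fell by 3.00 from 9.75 and 9.72 to 6.57, 6.71 and 6.93. Ndrg2 read 8.01, 8.05 and 8.02 against 10.39 and 10.41, and Cers4, a ceramide synthase, read 7.79, 7.78 and 7.82 against 10.05 and 10.09. All 3 Dicer-null arrays were below both Dicer-WT arrays in each case, as the rule that named the top 20 required. Dusp4, a phosphatase that switches off MAP kinases, read 7.10, 7.05 and 7.06 against 9.33 and 9.40 (fall by 2.30). Rragb, a Rag GTPase of the amino acid signal to mTORC1, read 7.30, 7.20 and 7.25 against 10.05 and 10.10. Cenpf, a kinetochore protein, read 8.44, 8.48 and 8.26 against 10.56 and 10.62. The cytochrome P450 gene Cyp2b23 fell by 2.35, Elobl, related to elongin B, by 2.25 and Aif1l, an actin-binding protein gene, by 2.12. Dppa3, a maternal factor that protects DNA methylation in the early embryo, read 6.20, 6.48 and 6.10 against 9.04 and 9.05, and the deubiquitinase gene Usp26 read 5.61, 5.40 and 5.64 against 7.56 and 7.97.

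Of 17 tested genes that earlier work reported to be repressed by miR-290 and miR-302 miRNAs, 15 were higher in Dicer-null cells and 0 lower, with 7 past 2-fold and a median difference of 0.73 against 0.01 over all genes. Among the 17, 2 had a Dicer-WT mean under the filter level and were tested through their Dicer-null level. Lats2, a kinase of the Hippo pathway, read 9.20, 9.28 and 9.08 against 7.39 and 7.40, 1.79 higher (SE 0.0846, adjusted p = 2.3e-15). Btg2, an antiproliferative gene, read 10.40, 10.48 and 10.43 against 8.67 and 8.61. The groups did not overlap in Lats2 or Btg2. Smaller rises were those of Ei24 (0.56), Smarcc2, a chromatin remodelling subunit (0.50), Cdk2ap1 (0.35) and the cell cycle kinase gene Wee1 (0.21). Dkk1, a Wnt inhibitor, differed by -0.28 and Fbxl5 by -0.12, and neither was called. The list was taken from reports on Dicer- or miRNA-deficient ES cells and was drawn up with results of these data known, so its direction is a description. One member, Casp2, lies in the chromosome 6 stretch described further on.

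Reported targets of the other families went both ways more often. Among 17 tested targets of miR-17 and miR-106, 9 were higher and 2 lower (median 0.16), and the 3 past 2-fold were Tgfbr2, a TGF-beta receptor (1.87), Rbl2 (1.30) and Ccnd1 (1.03). Rbl2, a retinoblastoma-related repressor, and Tgfbr2 are counted in the miR-290 and miR-302 list as well. The apoptosis activator Bcl2l11 read 10.74, 10.83 and 10.76 against 9.87 and 9.89, and the signal transducer Stat3 was 0.74 higher, while Limk1 (-0.30) and Hif1a (-0.21) were lower. Of 17 tested let-7 targets 8 were higher and 3 lower (median 0.13). The chromatin protein gene Hmga2 read 10.57, 10.59 and 10.58 against 8.81 and 8.62, and the D-type cyclin Ccnd2 read 9.30, 9.27 and 9.25 against 6.81 and 6.83, both without overlap. Lin28a, which blocks let-7 maturation and is itself a let-7 target, fell by 2.35, from 9.90 and 9.83 to 7.54, 7.54 and 7.47, whereas its paralog Lin28b was 0.48 higher. Igf2bp3, an RNA-binding protein gene 1.41 higher, lies in the chromosome 6 stretch.

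In the Nodal and TGF-beta pathway, receptors, an inhibitor and target genes were higher in Dicer-null cells. Of 12 tested ligands and receptors 7 were higher and 3 lower (median 0.32), of 14 inhibitors 5 were higher and 0 lower (median 0.15), and of 11 transducers and targets 8 were higher and 2 lower (median 0.62). Tgfbr2 read 9.31, 9.21 and 9.12 against 7.40 and 7.29. The activin subunit gene Inhbb read 8.42, 8.42 and 8.47 against 7.30 and 7.23. Both Dicer-WT arrays were lower in each gene. The ligand Nodal differed by 0.48, at 10.99 ± 0.0091 (SD, n = 3) against 10.51 ± 0.0192 (n = 2). Its antagonist Lefty1 read 11.81, 11.93 and 11.90 against 9.55 and 9.60, 4.95-fold higher (SE 0.145, adjusted p = 6.14e-13), while Lefty2 was 1.52-fold higher. Thbs1, an activator of latent TGF-beta, rose by 2.66 (SE 0.213), and the BMP targets Id1 and Id2 rose by 0.98 and 0.84. The inhibitory Smad gene Smad6 was 0.37 higher, a call that was lost without the second Dicer-WT array.

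Adhesion genes were nearly all higher in Dicer-null cells. Of 15 tested integrins and adhesion molecules 14 were higher and 1, the laminin receptor subunit Itga7, was lower (-0.40), with a median difference of 0.67. Itgav, the alpha subunit of vitronectin receptors, read 11.88, 11.86 and 11.85 against 10.25 and 10.25, and Itga5, that of the fibronectin receptor, read 10.73, 10.80 and 10.76 against 9.54 and 9.57. Itgb4, found in hemidesmosomes, read 9.89, 9.87 and 9.94 against 8.16 and 8.02 (difference 1.81, SE 0.0758, adjusted p = 2.19e-16). The common beta subunit Itgb1 differed by only 0.44, and the cell adhesion molecule Mcam by 1.71. Of 22 matrix genes 10 were higher and 2 lower (median 0.10), the largest among them Sparc, a matrix glycoprotein (1.58), Lama5, a laminin chain (1.14), and Nid1, a basement membrane linker (1.08).

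Epithelial and mesenchymal genes rose side by side. Of 19 epithelial genes 13 were higher and 3 lower (median 0.62), and of 18 mesenchymal genes 11 were higher and 0 lower (median 0.55). The simple-epithelium keratins Krt19 and Krt8 were 1.66 and 1.01 higher, and the tight junction gene Cldn3 read 9.76, 9.87 and 9.71 against 8.61 and 8.57. E-cadherin, Cdh1, read 12.78, 12.79 and 12.78 against 12.14 and 12.13, while N-cadherin, Cdh2, read 8.99, 8.93 and 8.90 against 6.71 and 7.05. Both cadherins were thus higher on every Dicer-null array. The intermediate filament gene Vim read 12.69, 12.61 and 12.62 against 10.34 and 10.39, 4.84-fold higher (SE 0.0757, adjusted p = 2.48e-18), and the calcium-binding gene S100a6 was 3.90-fold higher. The epithelial surface marker Epcam differed by 0.04 and was not called, and Tjp3, a tight junction scaffold, was lower (-0.91). Among 12 tested fibroblast or feeder markers 1 was higher and 3 lower, and the highest of the defining ones, Col1a1, read 7.82 ± 0.10 (SD, n = 3) against 7.87 ± 0.16 (n = 2).

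**Figure D3:**
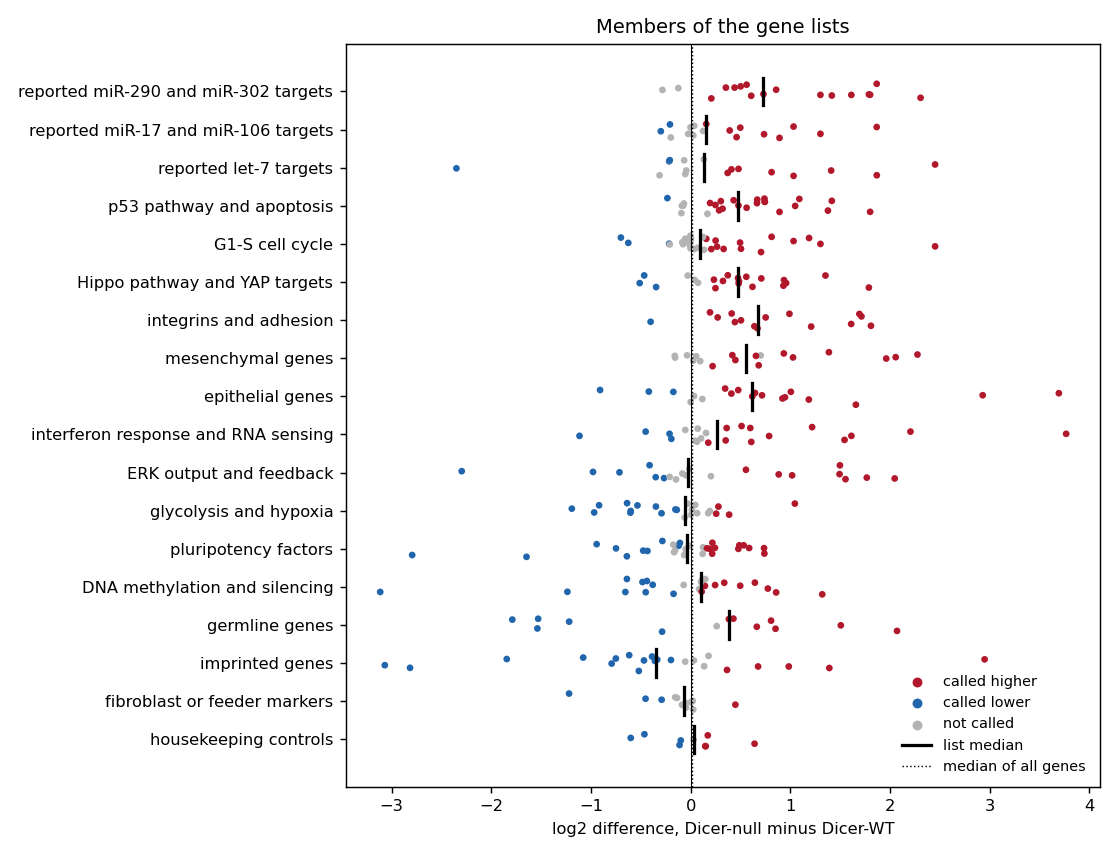
Log2 difference, Dicer-null minus Dicer-WT, for each tested member of 18 gene lists, coloured by its call, with the list median as a black bar and the median of all genes (0.01) as a dotted line. Nearly all points in the rows for integrins and for targets of miR-290 and miR-302 lie to the right of 0, while those of the pluripotency factors spread to both sides around a median of -0.03.

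Genes of the p53 pathway and apoptosis were higher in 19 of 25 cases and lower in 1 (median 0.48), while G1-S genes were more mixed. Perp, a p53 target of cell junctions, read 11.01, 11.03 and 11.06 against 9.59 and 9.73 (difference 1.38, SE 0.157, adjusted p = 3.62e-08). Bak1, which permeabilises the mitochondrial outer membrane, was 1.09 higher and the BH3-only gene Pmaip1 1.05 higher. Mdm2, both a target and the main inhibitor of p53, read 11.37, 11.43 and 11.34 against 10.65 and 10.62. Casp9, the initiator caspase of the mitochondrial pathway, was lower (-0.23), and Gadd45a and Sesn2 were not called. Gadd45a and Casp2 lie in the chromosome 6 stretch, and Casp2 read 10.85, 10.95 and 10.91 against 9.50 and 9.48. Of 30 G1-S genes 13 were higher and 3 lower (median 0.10), with rises of the cyclin-dependent kinase inhibitor genes Cdkn2b (1.19) and Cdkn2a (0.71) next to those of the cyclin genes Ccnd1 (1.03) and Ccne1 (0.50). E2f1, Cdk4 and Myc were not called. In the Hippo pathway 15 of 21 genes were higher and 3 lower (median 0.48). The YAP target Ccn1 read 11.56, 11.59 and 11.53 against 10.29 and 10.13, the scaffold gene Amotl1 was 0.96 higher, and the DNA-binding partners Tead1 and Tead2 were lower (-0.47 and -0.35).

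Interferon and RNA-sensing genes were higher in 12 of 22 tested cases and lower in 4 (median 0.26). Of 32 list members on the array, 14 had a Dicer-WT mean and 9 a Dicer-null mean under the filter level. Members low in Dicer-WT alone were tested because they were high in Dicer-null cells, so the filter favours rises here. Irf1, an interferon-induced transcription factor gene, read 9.87, 9.88 and 9.84 against 8.24 and 8.39 (difference 1.54, SE 0.0790, adjusted p = 1.05e-14). Irf9, a subunit of the interferon-activated complex ISGF3, read 9.96, 9.98 and 9.95 against 8.73 and 8.75, and Tap1, a peptide transporter for antigen presentation, was 0.79 higher. From Dicer-WT means under the filter, the immune GTPase gene Irgm1 read 9.06, 9.12 and 9.17 against 5.24 and 5.47, and Sting1, the adaptor of cytosolic DNA sensing, read 8.53, 8.58 and 8.61 against 6.44 and 6.30. Bst2, the antiviral protein tetherin, went the other way, at 8.17, 8.27 and 8.22 against 9.35 and 9.31. Irf3 was not called (-0.05), and Stat2, another ISGF3 subunit, was lower (-0.19).

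The core pluripotency factors differed little between the lines. Nanog read 13.12, 13.10 and 13.20 against 13.16 and 13.16 and Sox2 12.71, 12.72 and 12.71 against 12.74 and 12.78, with overlapping arrays for Nanog and no call for either. Pou5f1 was 0.24 higher (SE 0.0457, adjusted p = 5.25e-05). Of 30 pluripotency genes 11 were higher and 10 lower, and their median of -0.03 turned to 0.05 after centring each array on its median. The naive factor Klf4 read 10.28, 10.44 and 10.40 against 11.02 and 11.01, Tbx3 fell by 0.94, and Tcl1, an activator of AKT, read 9.94, 9.97 and 9.85 against 11.58 and 11.55. Klf2 (0.53) and the LIF co-receptor gene Il6st (0.59) were higher. All Klf4 and Tcl1 values of the Dicer-null line were below those of the Dicer-WT line.

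Primed epiblast genes were higher in 8 of 18 cases and lower in 2 (median 0.21), led by Fgf15 (1.02) and the homeobox gene Otx2, which read 11.56, 11.65 and 11.50 against 10.59 and 10.66 but 10.39 on average in the eGFP cells, while Fgf5 was lower (-0.37). Lineage markers were called in both directions. Of 14 endoderm genes 2 were higher and 2 lower, of 19 mesoderm and streak genes 3 and 3, and of 11 trophoblast genes 3 and 2. Eomes, a T-box factor of streak and trophoblast, fell by 1.45 from 9.24 and 9.42 to 7.87, 7.91 and 7.87. Of 10 neural genes 4 were higher and 2 lower. Pax6, an eye and neural tube factor, read 7.85, 8.03 and 7.84 against 6.76 and 6.24, both below the Dicer-null arrays, and the neural stem cell filament gene Nes read 7.68, 7.80 and 7.53 against 6.40 and 6.36. The calls of Gata4 (0.40) and Hand1 (0.38) were lost without the second Dicer-WT array.

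Germline genes divided into rises and falls. Of 13 tested, 7 were higher and 5 lower. Of 20 list members on the array, 10 had a Dicer-null mean and 7 a Dicer-WT mean under the filter level. Members low in Dicer-null alone were tested through their Dicer-WT level. Sohlh2, a transcription factor gene of early germ cells, read 9.93, 9.92 and 9.89 against 7.81 and 7.87, and the X-linked homeobox gene Rhox9 read 12.21, 12.13 and 12.15 against 10.68 and 10.64. On the other side, Tdrd12, of the piRNA pathway, read 9.52, 9.47 and 9.61 against 11.10 and 11.04 (difference -1.54, SE 0.0658, adjusted p = 3.25e-16). Dazl, an RNA-binding protein gene of germ cells, read 6.09, 6.32 and 6.17 against 7.90 and 8.05, and the synaptonemal complex gene Sycp3 read 6.13, 6.00 and 6.17 against 7.28 and 7.35. Dicer-null arrays were on 1 side of the Dicer-WT arrays in all 5 genes.

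Genes of DNA methylation and silencing were split as well, with 10 of 23 higher and 9 lower (median 0.11). Besides Dnmt3l, the falls included Hells, a chromatin remodeller needed for DNA methylation, at 9.71, 9.64 and 9.62 against 10.88 and 10.91 but with an eGFP mean of 10.72, the Polycomb genes Suz12 (-0.64) and Eed (-0.45), and Tet2 (-0.48). Among the rises were Tet3, an oxidase of methylcytosine, at 8.40, 8.31 and 8.31 against 6.96 and 7.08, and the de novo methyltransferase gene Dnmt3a, at 8.84, 8.90 and 8.83 against 8.14 and 8.02. Tet3 lies on chromosome 6, just past the end of the stretch described further on. With the shorter windows of 31 genes used there, a raised run included Tet3. Dnmt3b was not called (-0.07), and the maintenance methyltransferase Dnmt1 was 0.14 higher.

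Imprinted genes were more often lower than higher, with 13 of 22 tested lower and 5 higher (median -0.35). Phlda2, a growth restrictor of the placenta, read 9.50, 9.43 and 9.38 against 11.22 and 11.34 (difference -1.84, SE 0.0578, adjusted p = 7.38e-19). Sgce read 8.31, 8.33 and 8.25 against 9.40 and 9.36, and Igf2, the fetal insulin-like growth factor gene, 9.46, 9.43 and 9.44 against 10.21 and 10.17. Sfmbt2, a Polycomb-related gene whose intron hosts a miRNA cluster, read 8.10, 8.07 and 7.89 against 10.83 and 10.84. None of these genes had overlapping groups. Besides Plagl1, the neuronal gene Nnat read 8.99, 9.13 and 8.99 against 7.52 and 7.77, and the zinc finger gene Peg3 was 0.99 higher.

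The maternally expressed transcripts of the Dlk1-Dio3 region on chromosome 12 were low in the Dicer-null line. Meg3, a non-coding RNA, read 6.49, 6.32 and 6.23 against 9.37 and 9.46, and Rian, which hosts small nucleolar RNAs, read 5.01, 5.17 and 5.02 against 7.16 and 6.97. Of 40 miRNA probe sets between Dlk1 and Dio3, which read precursor or primary transcripts, 21 (52.5%) were lower and 0 higher, whereas of 260 miRNA probe sets elsewhere 46 (17.7%) were lower and 10 higher. Without the expression filter, as here, 19.8% of all 19938 genes were called lower and 22.4% higher. Mir377, the precursor of miR-377-3p printed above, read 3.70, 3.67 and 3.57 against 6.81 and 7.09, and Mir382 read 4.13, 4.47 and 4.31 against 6.77 and 6.35. Both Dicer-WT arrays stood clear of the Dicer-null arrays. Of the 40 probe sets 28 had a Dicer-null mean and 25 a Dicer-WT mean under the filter level. The paternally expressed Dlk1, a Notch-like protein gene, read 7.85, 8.01 and 7.88 against 8.01 and 7.92 and was not called, nor were Rtl1 and Dio3. With wild-type DICER1 against the eGFP vector, 0 of the 40 miRNA probe sets were called, against 64 of the 260 elsewhere. Meg3 was not called either (adjusted p = 0.57).

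Of 20 genes of ERK output and feedback 8 were higher and 6 lower, near the shares of all genes, and the median of -0.03 turned to 0.05 after centring each array on its median. The transcription factor genes Fos and Jun read 10.26, 10.12 and 10.21 against 8.62 and 8.79, and 10.93, 11.03 and 10.93 against 9.37 and 9.56. In the eGFP cells, also Dicer-/-, Fos had a mean of 6.67 and Jun of 9.50. Phlda1 was 2.05 higher, Ier3 1.77 and the ERK phosphatase gene Dusp5 1.55. The inhibitors Spry2 (-0.98), Spry4 (-0.41) and Spry1 (-0.35) were lower, as were the receptor genes Fgfr2 (-0.71) and Fgfr1 (-0.27). In the Wnt pathway 10 of 24 genes were higher and 2 lower (median 0.20), with the receptor gene Fzd2 at 9.05, 9.24 and 9.12 against 7.42 and 7.09 and the secreted inhibitor Sfrp1 1.49 higher. Tcf7l1 and Tcf7l2, which bind Wnt target genes, rose by 1.03 and 0.92, and Tcf7l1 lies in the chromosome 6 stretch.

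Glycolytic and hypoxia-inducible genes were lower in 11 of 23 cases and higher in 4. Their median of -0.06 turned to 0.02 after centring each array on its median and to 0.01 after repeated quantile normalisation. Vegfa, an angiogenic factor gene, read 9.56, 9.58 and 9.58 against 10.77 and 10.76 (difference -1.19, SE 0.107, adjusted p = 5.2e-10). Bnip3, a mitophagy receptor gene, fell by 0.97 and the phosphofructokinase gene Pfkp by 0.92, and Aldoa read 12.47, 12.43 and 12.32 against 13.00 and 13.02. Hk2, a hexokinase gene, was the only member past 2-fold higher (1.05) and lies in the chromosome 6 stretch. Of 9 housekeeping controls 4 were higher and 4 lower, among them the glycolytic enzyme gene Pgk1 (-0.60), and the median was 0.03.

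Of 24 tested genes of the miRNA machinery 8 were higher and 7 lower (median 0.08), shares close to those of all genes. Ago1, an Argonaute, read 11.25, 11.34 and 11.22 against 10.08 and 10.03 (difference 1.22, SE 0.0652, adjusted p = 2.59e-14), and its silencing partner Tnrc6a read 11.09, 11.04 and 10.94 against 9.91 and 10.05. Neither group of arrays overlapped. Tnrc6b was 0.62 higher, Ago2 0.10 higher and Dgcr8, the partner of the nuclear ribonuclease Drosha, 0.26 higher, while Drosha was not called (0.00). The terminal uridylyl transferase Tut4 was lower (-0.67), as was the export factor Xpo5 (-0.28). Among 19 tested host transcripts of miRNAs 8 were higher and 7 lower. Mir17hg, which hosts the miR-17 cluster, read 7.94, 7.91 and 8.03 against 8.54 and 8.67.

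Most genes with larger parental differences changed in the opposite direction when wild-type DICER1 was set against the eGFP vector. This comparison set 6 arrays with wild-type DICER1 against 3 with the eGFP vector, none of them a parental array, and over all genes 28.7% were called lower, 30.4% higher and 40.9% were not called in it. In the deposited values the means of the 4 ENvA and the 2 PGKnvA arrays with wild-type DICER1 are equal within 7.5e-05, and the vector term leaves the error of this comparison to the 4 ENvA arrays. Of the 660 genes at least 2-fold higher in the Dicer-null line, 561 (85.0%) were lower with wild-type DICER1, 194 of them at least 2-fold, 36 were higher and 63 were not called, with a median of -0.72. Of the 318 genes at least 2-fold lower, 261 (82.1%) were higher with wild-type DICER1, 80 of them at least 2-fold, 11 were lower and 46 were not called, with a median of 0.63. One wild-type DICER1 array, the fourth, stood apart in several of these genes. Without it 554 and 265 genes moved the opposite way. These counts rest on the direction from the eGFP level alone, not on an approach to the Dicer-WT level. Of the 660 and 318 genes, 121 and 110 had an eGFP mean nearer to the Dicer-WT than to the Dicer-null mean. Some of these moved away from the Dicer-WT level and still count as opposite, such as Cenpe (eGFP mean 10.25, Dicer-WT mean 9.87, change 0.36).

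Single genes differed in how far they moved. Msln went from 11.36 to 11.42 with eGFP to 8.23 to 8.35 with wild-type DICER1, next to its Dicer-WT level, and Car4 from 6.30 to 6.76 to 9.45 to 10.07. Lefty1 fell by 2.61, below its Dicer-WT level, and Elobl rose by 3.22, above its own. Igfbp7 fell by 2.15 to a range of 8.42 to 8.70, which is still above its Dicer-WT arrays. Some of the largest falls were not moved past the threshold. The adjusted p of the change was 0.57 for Meg3, 0.054 for Rragb (0.31) and 0.26 for Cyp2b23 (-0.17). Of the lists, 14 of the 15 higher miR-290 and miR-302 targets and 11 of the 12 higher interferon genes were moved the opposite way. The same held for 11 of the 13 higher epithelial genes and 10 of the 11 lower glycolytic genes. Fewer moved the opposite way among higher integrin and adhesion (7 of 14), mesenchymal (6 of 11), Hippo (8 of 15), p53 (8 of 19) and ERK genes (1 of 8). These counts take called members of any size, so the shares of the 2-fold genes are not a like measure. Thbs1 (0.51), Phlda1 (0.83), Dusp5 (0.94) and Ccn1 (1.20) were higher with wild-type DICER1 than with eGFP. They were also higher in Dicer-null than in Dicer-WT cells. Their mean levels in Dicer-null, eGFP and wild-type DICER1 cells were 10.9, 10.3 and 10.8 for Thbs1 and 8.8, 9.0 and 9.8 for Phlda1. For Dusp5 they were 10.1, 9.4 and 10.3, and for Ccn1 11.6, 10.6 and 11.8. The wild-type DICER1 mean of Thbs1 thus stayed under its Dicer-null mean.

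**Figure D4:**
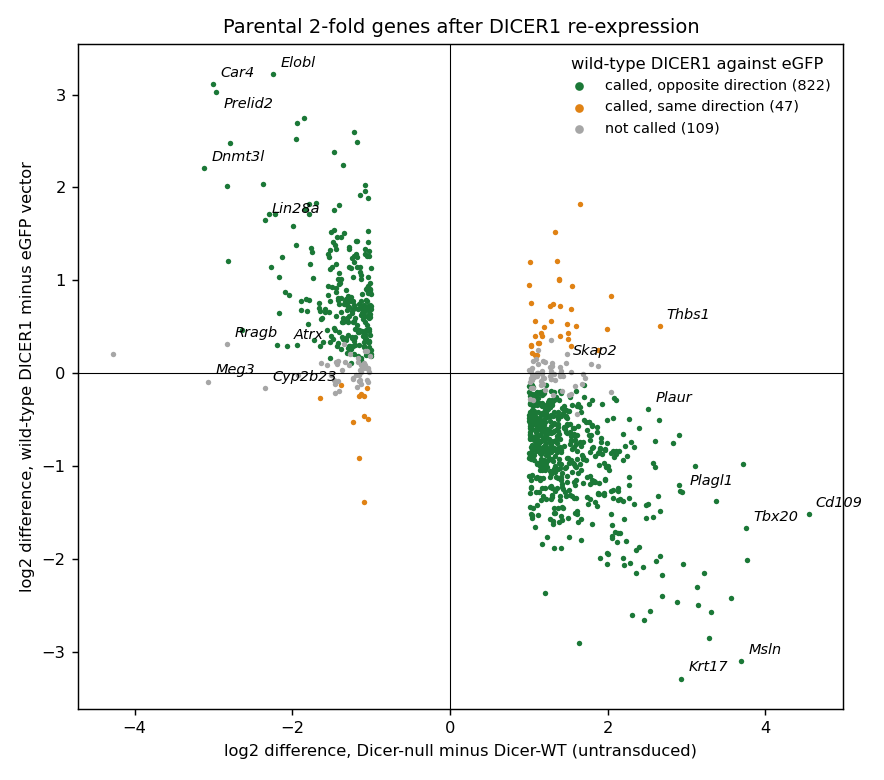
For the 978 genes at least 2-fold different between the parental lines, the log2 difference Dicer-null minus Dicer-WT (x axis) against the log2 difference wild-type DICER1 minus eGFP vector (y axis), coloured by the call of the latter. Most points (561 higher and 261 lower genes) lie at the lower right and upper left as opposite changes, while Meg3, Rragb and Cyp2b23 lie near 0 on the y axis.

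The eGFP cells, which are also Dicer-/-, did not match the untransduced Dicer-null line in every gene. Of the 660 higher genes 121 (18.3%) had an eGFP mean nearer to the Dicer-WT than to the Dicer-null mean, and of the 318 lower genes 110 (34.6%) did. In 41 higher and 68 lower genes the eGFP mean kept less than 0.25 of the parental difference or passed beyond the Dicer-WT mean. Besides Fos and Jun, Fosb had an eGFP mean of 7.29 and Atf3 of 8.03, against Dicer-null means of 9.40 for Fosb and 9.99 for Atf3. The Dicer-WT means were 8.70 for Fos, 9.46 for Jun and 8.71 for Atf3, and the Dicer-WT arrays read 8.09 and 7.92 for Fosb. The oxidative stress enzyme gene Hmox1 read 11.26, 11.29 and 11.32 in Dicer-null, 9.67 and 9.62 in Dicer-WT and 9.80 on average in eGFP cells. Of the genes described above with a smaller parental change, Otx2, Wee1, Limk1, Stat2, Il6st, Dnmt1, Igf2, Ago2, Xpo5, Mir17hg and Uty met the same criterion.

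The 68 lower genes are of various kinds, zinc finger genes with a Zfp symbol among them. Atrx, a chromatin remodeller, read 9.03, 9.14 and 8.88 in Dicer-null and 11.07 and 11.10 in Dicer-WT cells, with an eGFP mean of 11.26. Cenpe, a kinetochore motor, read 8.19, 8.10 and 8.16 against 9.86 and 9.88, with an eGFP mean of 10.25, and Cenpf, given above, had an eGFP mean of 10.38. The condensin subunit Smc2, the proliferation antigen Mki67 and the repair gene Brca2 had eGFP means of 11.19, 11.88 and 10.04, Dicer-WT means of 11.09, 11.85 and 10.24 and Dicer-null means of 9.86, 10.71 and 8.86. For these genes the untransduced Dicer-null arrays alone were low among the groups compared. The genes were singled out after their values were seen, and what differs between the untransduced and the eGFP cells beyond the vector was not tested.

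One stretch of chromosome 6 was shifted upward as a whole. It was found by taking the median difference in windows of 51 consecutive tested genes (GRCm38.p6 gene order) and joining the neighbouring runs of windows past 0.3, which are 2 runs with 1 gene between them, a choice made after the data were seen, so its values are a description. The stretch holds 188 tested genes from Nup205 to Slc4a5, with a median difference of 0.48, and 131 of them (69.7%) were higher, 6 lower and 40 (21.3%) at least 2-fold higher. The other 449 tested genes of chromosome 6 had a median of -0.01, with 32.1% higher. Windows of 51 genes on other chromosomes reached medians between -0.27 and 0.31, against 0.68 on chromosome 6. With windows of 31 genes the range elsewhere was -0.50 to 0.39, against 0.70 on chromosome 6. Runs past 0.3 in either direction, of 1 to 17 genes, then also appeared on chromosomes 3, 9, 10, 12, 14, 17 and X.

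The genes of the stretch have varied roles. Smyd1, a muscle methyltransferase, read 9.09, 9.18 and 9.04 in Dicer-null and 6.38 and 6.45 in Dicer-WT cells, and Reep1, which shapes the endoplasmic reticulum, read 9.66, 9.78 and 9.70 against 7.22 and 7.07. The actin-capping gene Capg read 9.73, 9.83 and 9.82 against 7.95 and 7.97. The kinase Braf read 10.57, 10.53 and 10.55 against 9.48 and 9.51, and the chaperone gene Pdia4 read 12.95, 12.84 and 12.95 against 11.54 and 11.50. Every Dicer-null array was higher in these genes.

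The shift of the stretch was present in all groups of Dicer-null origin, with and without DICER1. Against the Dicer-WT mean, the median over the stretch was 0.46 to 0.48 on the 3 Dicer-null arrays and 0.43 to 0.57 on the 23 transduced arrays, whose other genes had medians of -0.03 to 0.04. It was 0.46 for the eGFP group and 0.50 for the wild-type DICER1 group, and these share the Dicer-WT arrays with the parental comparison. Between wild-type DICER1 and eGFP, which do not use those arrays, the stretch had a median of 0.02, with 55 genes higher and 53 lower, although each wild-type DICER1 array (0.50 to 0.55 over the stretch) lay above each eGFP array (0.43 to 0.46). Of its 40 genes at least 2-fold higher 27 (67.5%) were lowered by wild-type DICER1, compared with 534 of 620 (86.1%) outside it. Pdia4 (-0.03), Tgoln1 (0.07) and Skap2 (0.11) were not moved past the threshold, while Smyd1 fell by 2.17.

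**Figure D5:**
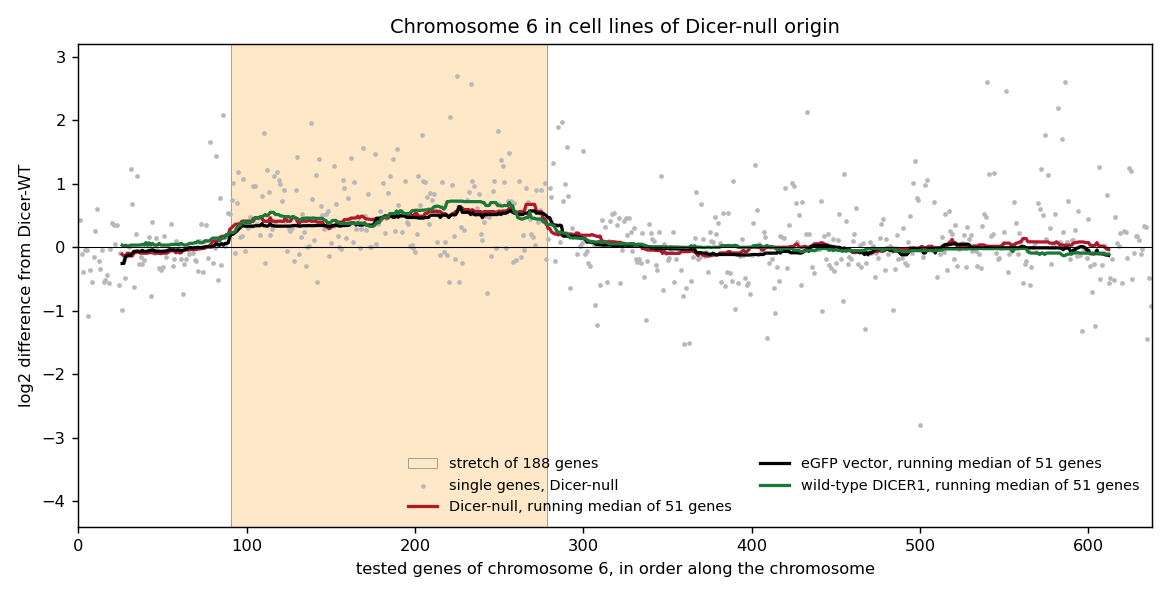
Log2 difference from the Dicer-WT mean along the tested genes of chromosome 6, in chromosome order, with single genes of the Dicer-null line as grey points and running medians of 51 genes for Dicer-null (red), eGFP vector (black) and wild-type DICER1 cells (green). All 3 lines rise together over the shaded stretch of 188 genes and return to near 0 on both sides.

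Sex-linked genes were read in both lines. The Y-linked genes Eif2s3y and Uty were expressed in both, at 9.83, 9.85 and 9.78 against 10.68 and 10.84 for Eif2s3y and 8.84, 8.96 and 8.85 against 9.68 and 9.76 for Uty. Dicer-null cells were lower in both genes, by 0.94 (SE 0.0783) and 0.84 (SE 0.0606). With wild-type DICER1 Eif2s3y rose by 0.69, while Uty differed by 0.05 (adjusted p = 0.46) from an eGFP mean of 9.67. Xist, which coats the inactive X chromosome, was under the filter level in both lines, at 5.27, 5.39 and 5.59 against 5.81 and 5.90. Of 422 tested X-linked genes 25.4% were called higher and 37.9% lower, with a median of -0.08.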

How the data were processed

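Probe set expression was deposited on a log2 scale. RMA and Partek 6.6 are named, without settings, in the submitters' processing notes. No scanner files were used here, and the sources used here do not give the genome build of the array annotation. Of 35556 probe sets 21789 had 1 symbol in the platform annotation and were kept, 1621 had several and 12146 none. Each of 19938 symbols took its probe set with the highest mean of both parental group means, and those under the 30th percentile (6.40) were left out. All 28 arrays entered 1 limma 3.58.1 model (R 4.3.3) with 9 group coefficients, a PGKnvA term and 18 residual degrees of freedom. Tests were two-sided with Benjamini-Hochberg adjustment over 13956 genes, and the code was tested on simulated data. The deposited values obey 3 exact relations between arrays, so that only 16 dimensions of spread within groups are independent and the p-values are too small. The number of arrays limits precision. Chromosomes came from the GRCm38.p6 gene table. Named genes were Dicer1, the 20 largest called rises and falls without overlap, up to 4 called members of each of 33 lists and the sex-linked list; predicted, miRNA, snoRNA, olfactory, vomeronasal and immune segment genes were left out of the top 20. Further list members, the stretch genes and the genes with Dicer-WT-like eGFP levels were chosen after their values were seen. The comparison, lists and tests were chosen with earlier results of these data known. Alternatives were other scalings, filters, fits and left-out arrays. Figures used Python 3.11.15 with matplotlib 3.10.9.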

Additional observations from a re-analysis of the deposited data

Results flagged for a closer look

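Dicer1 and the 40 genes with the largest rises and falls were examined with Dixon's criterion. In 11 of them 1 wild-type DICER1 array, the fourth, lay farther from the other 5 than it allows. The criterion's rate of about 1 in 20 holds for independent values, whereas here the ENvA and PGKnvA means are equal within 7.5e-05. The 11 genes also share the fourth array, so their number is not to be read against that rate. That array was the highest of 6 for Irgm1 (7.45, next 6.62), Pla2g7 (10.08, next 9.31), Loxl4 (8.84, next 8.11), Krt17 (8.97, next 8.57), Dicer1 (9.44, next 9.32), Dusp4 (8.75, next 8.42), Lin28a (10.20, next 9.96), Sfmbt2 (10.46, next 10.17) and Dnmt3l (11.87, next 11.67). It was the lowest for Ndrg2 (10.18, next 10.67) and Prelid2 (9.25, next 9.86). The parental comparison does not use this array for its means. Without it the change from eGFP to wild-type DICER1 was -2.69 for Pla2g7, -2.32 for Loxl4 and 3.25 for Prelid2, in the same direction as with it.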

How the results depend on the processing

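The counts of genes called, called at least 2-fold and moved the opposite way by wild-type DICER1 stayed within 1.5 times the values above under every alternative run for them. Leaving out 1 array at a time gave 6915 to 7665 genes called, 965 to 993 at least 2-fold and 806 to 825 moved the opposite way, and a median of 0.47 to 0.51 for the chromosome 6 stretch, with 0.51 without the second Dicer-WT array. That median was 0.56 after centring each array on its median, 0.52 after repeated quantile normalisation and 0.68 with the filter at the 50th percentile. With the replicate block 7623 genes were called. The replicate numbers did not show a pairing of the lines, since deviations of same-numbered arrays correlated at -0.11 for number 1 and -0.09 for number 2. Across 1963 values of named genes under alternatives, 1960 kept their direction and side of the threshold and 3 lost their call. List medians moved by more than the spread between arrays in 138 of 461 cases and chromosome medians in 60 of 280. The alternatives that leave out the fourth wild-type DICER1 array, block array set 1 or change the window were chosen after seeing the data. Signal over background was not given, which limits what can be said of levels under 6.40.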
